A study of Mus musculus with 15 samples.

Results

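Kallikreins are secreted serine proteases, and the epidermis makes a set of them from a cluster of neighbouring genes. The 10 genes described here were chosen by symbol from the 48795 genes in the count tables, through the GENCODE mouse annotation. They are the kallikreins Klk5, Klk6, Klk7, Klk8, Klk10, Klk11, Klk13 and Klk14, together with Spink5 and St14. Of the 10, Spink5 encodes an inhibitor of kallikreins, whereas St14 encodes matriptase, a membrane-bound serine protease that activates other proteases. RNA was measured in ears of female mice aged 5 weeks in a model of ear inflammation caused by phorbol 12-myristate 13-acetate (PMA), a phorbol ester that activates protein kinase C. The libraries fell into PMA_1002 (n = 6), in which PMA was combined with the innate defense regulator peptide 1002 whose anti-inflammatory action the study addressed, PMA_ethanol (n = 4), in which PMA was combined with ethanol, and Control (n = 5). The sources used here do not give the strain, the doses, the times or any treatment of the Control ears. The PMA_1002 label does not name ethanol, so an effect of the peptide and a difference of vehicle cannot be told apart.

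In human and mouse epidermis, kallikreins are made in the upper living layers and secreted into the spaces between the cells of the horny layer, where they cut the protein bridges that hold these cells together and so allow shedding. They are made as inactive precursors, which matriptase and other kallikreins activate by cutting off a short leading peptide. LEKTI, the product of Spink5, blocks several active kallikreins, and its loss causes Netherton syndrome in humans, in which the skin barrier fails and the skin is inflamed. Some kallikreins also cut protease-activated receptors on keratinocytes, and in cell culture this induces Tslp, the gene of an epithelial cytokine.

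Reads in genes numbered between 2656680 (PMA_ethanol replicate 3) and 28585995 (PMA_1002 replicate 5) per library. Levels are given in CPM, that is, counts scaled to the TMM-corrected size of each library. The source is whole ear and not isolated epidermis. All 7 markers of basal keratinocytes and all 8 of suprabasal keratinocytes had reads, and so did all 7 markers of skeletal muscle, with summed levels of 1660 to 3312 CPM in PMA_1002, 894 to 4294 CPM in PMA_ethanol and 1425 to 4505 CPM in Control. The sums of 11 hair follicle markers differed widely between libraries of 1 group, from 9.80 to 1184 CPM in PMA_1002, from 17.4 to 3721 CPM in PMA_ethanol and from 50.9 to 3690 CPM in Control. In such bulk tissue, fewer cells of a type and less RNA per cell cannot be told apart. Whether each library is a different animal is not stated in the labels, and the p-values therefore speak of the spread among these libraries, which may be technical.

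On GRCm38, the 8 kallikreins lie on the plus strand of chromosome 7 within 160.8 kb, between 43690418 and 43851181. The 10 protein-coding genes annotated in that stretch are all kallikreins, in the order Klk14, Klk13, Klk12, Klk11, Klk10, Klk9, Klk8, Klk7, Klk6 and Klk5. Further kallikrein genes, Klk4, Klk15, the Klk1b genes and Klk1, follow beyond Klk5. Spink5 and St14 lie on other chromosomes. An antisense transcript of the cluster, 2310002F09Rik, shares 382 exon bases with Klk8 and 287 with Klk14. Its level was 2.31 CPM in PMA_1002, 1.99 CPM in PMA_ethanol and 2.80 CPM in Control. The library kit keeps the strand of the RNA, but the sources used here do not give the strand setting of the counting, and reads of these partners may not have been told apart.

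The promoters of 4 of the clustered kallikreins are shown. Of these, 3 genes, Klk6, Klk7 and Klk11, rose in PMA_ethanol ears while Klk5, the next gene after Klk6, was not called. Klk10 and Klk13 also rose and Klk8 was not called, but their promoters are not printed. The RefSeq windows (GRCm38.p6) hold 250 bases before and 50 bases after an annotated start, on the plus strand, 5′ to 3′. Capitals mark CCACCC or its reverse complement GGGTGG, the CACCC box that Krüppel-like factors can bind, a motif chosen after the sequences were seen.
Klk6, chr7:43824294-43824593, plus strand: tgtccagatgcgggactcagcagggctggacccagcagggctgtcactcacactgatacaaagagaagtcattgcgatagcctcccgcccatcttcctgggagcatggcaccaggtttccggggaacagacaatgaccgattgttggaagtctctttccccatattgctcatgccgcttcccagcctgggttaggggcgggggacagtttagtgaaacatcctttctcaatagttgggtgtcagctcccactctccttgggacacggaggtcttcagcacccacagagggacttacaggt
Klk7, chr7:43811044-43811343, plus strand: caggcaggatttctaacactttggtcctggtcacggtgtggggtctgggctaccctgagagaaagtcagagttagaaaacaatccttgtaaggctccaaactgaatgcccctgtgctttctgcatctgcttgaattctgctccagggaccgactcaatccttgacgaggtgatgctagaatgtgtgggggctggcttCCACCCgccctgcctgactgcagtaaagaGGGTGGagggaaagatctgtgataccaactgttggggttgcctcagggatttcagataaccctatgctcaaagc
Klk11, chr7:43774367-43774666, plus strand: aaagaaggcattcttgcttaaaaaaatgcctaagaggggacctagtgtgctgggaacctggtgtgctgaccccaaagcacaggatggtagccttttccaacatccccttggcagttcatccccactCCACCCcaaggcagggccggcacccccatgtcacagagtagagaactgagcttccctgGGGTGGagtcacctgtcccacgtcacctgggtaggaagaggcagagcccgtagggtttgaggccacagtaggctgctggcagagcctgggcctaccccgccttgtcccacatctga
Klk5, chr7:43842019-43842318, plus strand: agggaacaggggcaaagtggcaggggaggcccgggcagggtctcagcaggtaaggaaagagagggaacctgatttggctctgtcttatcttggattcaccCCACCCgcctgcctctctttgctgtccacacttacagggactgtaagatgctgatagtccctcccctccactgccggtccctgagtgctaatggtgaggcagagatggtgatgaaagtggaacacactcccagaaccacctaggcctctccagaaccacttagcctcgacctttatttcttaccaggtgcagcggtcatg
RefSeq gave 10 windows for 8 of the members, with a second window each for Klk6 and Klk11. The CACCC box was found in 6 of these 10 windows, against 31.5% of 32851 mouse promoter windows, and was missing from both Klk6 windows, the second Klk11 window and that of Klk8. Because this motif was chosen after the sequences were seen, these shares do not test for an excess. In Klk7 the matches began 53 and 24 bases before the start, in Klk11 124 and 66 bases before it, and in Klk5 150 bases before it. The windows of Klk10, Klk13 and Klk14, which are not printed, held 2, 3 and 1 matches. The AP-1 site TGANTCA, through which phorbol esters are known to act on many genes, was in 0 of the 10 windows, against 7.81% of all windows. TATAAA, the TATA box, was likewise in 0 of 10 against 13.6%. Both strands were searched. A match is not a site shown to be used, and a missing match says only that these letters are not in the window. Spink5 and St14 had no entry.

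PMA_ethanol against Control compares ears given PMA and ethanol with ears whose handling the labels leave unnamed, so effects of PMA and of ethanol cannot be told apart. Of 9 members with enough reads to test, 7 rose and 0 fell: Klk6, Klk7, Klk10, Klk11, Klk13, Spink5 and St14. In this comparison edgeR called 32.5% of all 14991 tested genes higher and 35.9% lower at an adjusted p under 0.05. At an unadjusted p under 0.05 the count of members lower was also 0, as it was with DESeq2. The median log2 fold change of the 9 members was 1.27, and that of all tested genes was -0.07. In each of the 7, every PMA_ethanol library lay above every Control library. The share of all tested genes separated in this way is not given here for any of the 3 comparisons. Such separation can therefore not be read as particular to the members. Each call is from edgeR's quasi-likelihood test (two-sided, 15 libraries in 1 fit), with Benjamini-Hochberg adjustment over all tested genes. The 3 comparisons share libraries, so their values are given side by side and are not independent of each other.

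**Figure D1:**
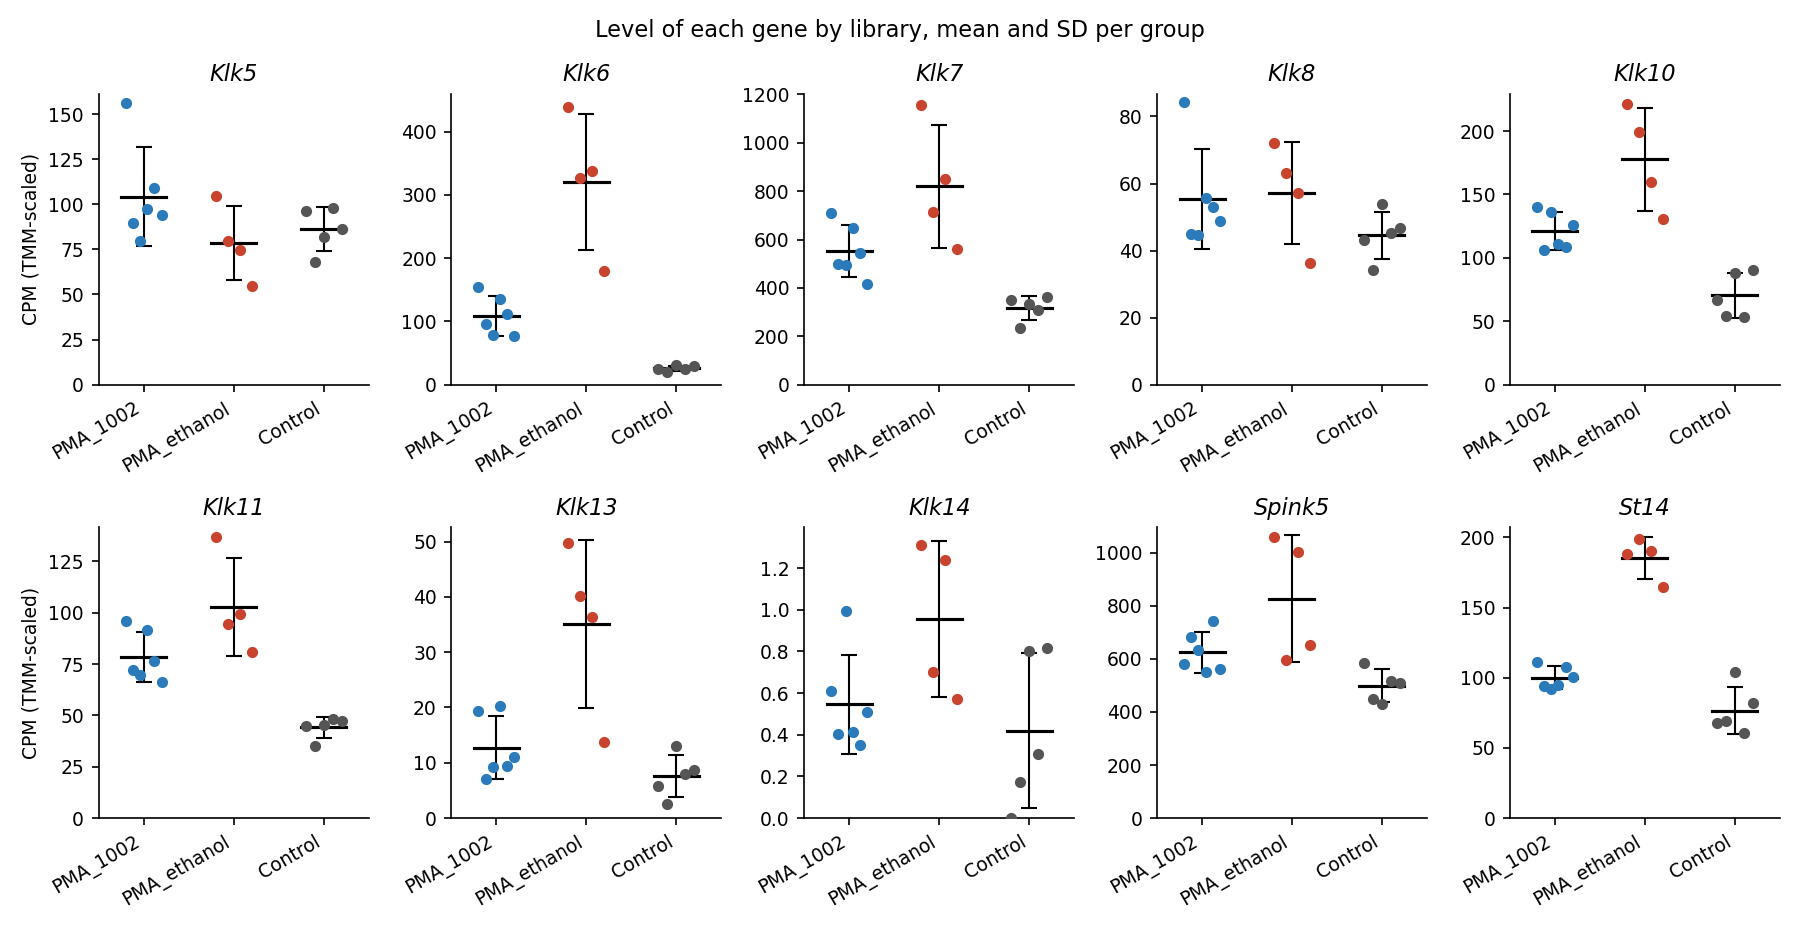
Level of each of the 10 genes in CPM (y axes, linear, each from 0) in the PMA_1002 (n = 6), PMA_ethanol (n = 4) and Control (n = 5) libraries. Points are libraries, wide bars means and error bars SD. The Klk6 points of PMA_ethanol (178.9 to 439.2 CPM) and of Control (19.4 to 30.3 CPM) lie far apart, while those of Klk5 overlap in all 3 groups.

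Klk6 (ENSMUSG00000050063, chromosome 7 from 43824499 to 43832030) encodes a trypsin-like kallikrein. Its level was 439.2, 326.0, 338.1 and 178.9 CPM in the PMA_ethanol libraries, against 24.4, 19.4, 30.3, 24.9 and 28.8 CPM in the Control libraries. The PMA_1002 libraries lay between them, with 77.3 CPM at the lowest, 103.5 at the median and 154.1 at the highest. No library of any group reached into the range of another group. Klk6 rose 12.5-fold in PMA_ethanol over Control, a log2 fold change of 3.64 (SE 0.269, adjusted p = 2.28e-08 by edgeR).

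Klk7 (ENSMUSG00000030713) encodes the chymotrypsin-like kallikrein of the horny layer, which degrades corneodesmosin. It had 1158, 712.2, 852.4 and 559.6 CPM in PMA_ethanol libraries, against 348.1, 235.7, 334.4, 309.6 and 363.4 CPM in Control libraries. Even the lowest PMA_ethanol library was above the highest Control library. The log2 fold change was 1.37 (SE 0.193, adjusted p = 1.15e-05 by edgeR), or 2.58-fold.

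Klk10 and Klk11 are neighbours within the cluster, and human KLK11 is a trypsin-like enzyme. Klk10 had 221.2, 199.3, 159.7 and 130.6 CPM in PMA_ethanol libraries and 66.4, 54.3, 87.7, 53.7 and 90.6 CPM in Control libraries, a log2 fold change of 1.33 (SE 0.176, adjusted p = 5.46e-06 by edgeR). Klk11 had 136.7, 94.6, 99.3 and 80.9 CPM in PMA_ethanol libraries and 44.6, 35.1, 45.5, 48.3 and 47.4 CPM in Control libraries, a log2 fold change of 1.22 (SE 0.146, adjusted p = 1.3e-06 by edgeR). Both thus changed by about as much as Klk7. Klk13, another secreted kallikrein, was scarcer and more scattered, with 49.8, 40.2, 36.4 and 13.8 CPM in PMA_ethanol libraries and 5.88, 2.58, 13.0, 7.99 and 8.67 CPM in Control libraries. PMA_ethanol replicate 4 came close to the highest Control library. The log2 fold change of Klk13 was 2.16 (SE 0.445, adjusted p = 0.000639 by edgeR).

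Klk5, which activates other kallikreins and cuts desmoglein 1, and Klk8, a trypsin-like kallikrein, did not pass the test. Klk5 averaged 78.5 ± 20.5 CPM in PMA_ethanol and 86.2 ± 12.2 CPM in Control (SD, n = 4 and 5), a log2 fold change of -0.13 (SE 0.197, adjusted p = 0.577 by edgeR). Klk8 averaged 57.2 ± 15.2 CPM in PMA_ethanol and 44.6 ± 7.06 CPM in Control, a log2 fold change of 0.36 (SE 0.207, adjusted p = 0.134 by edgeR). For both genes the libraries of the groups overlapped. Without PMA_ethanol replicate 4, which was the lowest library of its group for Klk8, the Klk8 value was 0.53 (adjusted p = 0.0202 by edgeR), and without PMA_1002 replicate 1 it was 0.38 (adjusted p = 0.0468 by edgeR). Klk14, a trypsin-like kallikrein, had 2 to 10 reads per library in PMA_1002, 3 to 16 in PMA_ethanol and 0 to 10 in Control, and was left out of the test by the filter on low counts. Its level was 0.547 CPM in PMA_1002, 0.956 CPM in PMA_ethanol and 0.420 CPM in Control. Without the filter, Klk14 had a log2 fold change of 0.96 between PMA_ethanol and Control (SE 0.533, adjusted p = 0.175 by edgeR) and was not called.

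Spink5 (ENSMUSG00000055561, chromosome 18 from 43963235 to 44022501, plus strand) and St14 (ENSMUSG00000031995, chromosome 9 from 31089402 to 31131853, minus strand) rose along with the kallikreins. The inhibitor gene Spink5 had 1060, 594.5, 1002 and 650.5 CPM in PMA_ethanol libraries, against 585.6, 447.8, 429.3, 515.9 and 510.4 CPM in Control libraries. PMA_ethanol replicates 1 and 3 stood well above the other two, of which replicate 2 barely exceeded Control replicate 1. The log2 fold change of Spink5 was 0.73 (SE 0.157, adjusted p = 0.000556 by edgeR). St14 had 188.4, 199.1, 190.4 and 164.4 CPM in PMA_ethanol libraries, against 67.6, 69.3, 103.8, 60.4 and 82.3 CPM in Control libraries. The 4 PMA_ethanol libraries of St14 lay close together and far above Control. St14 rose by 1.27 on the log2 scale (SE 0.123, adjusted p = 9.23e-08 by edgeR).

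**Figure D2:**
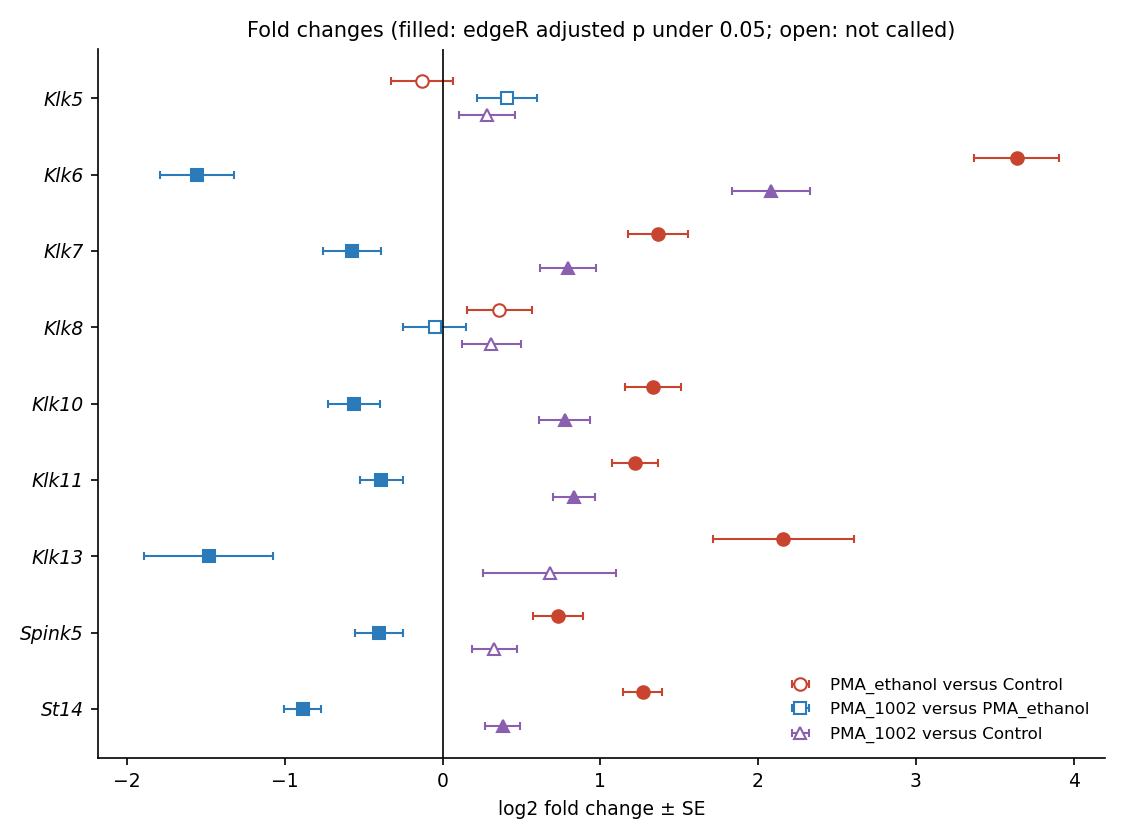
Log2 fold change with its SE (x axis) of the 9 tested members (y axis) in PMA_ethanol versus Control (circles), PMA_1002 versus PMA_ethanol (squares) and PMA_1002 versus Control (triangles). Filled symbols passed the edgeR adjusted p threshold of 0.05. Klk6 lies farthest from 0 in all 3 comparisons, at 3.64, -1.56 and 2.08.

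PMA_1002 against PMA_ethanol compares PMA-treated ears with the peptide and with ethanol, so an effect of the peptide and a difference of vehicle cannot be told apart. Of the 9 tested members, 7 fell and 0 rose, and they were Klk6, Klk7, Klk10, Klk11, Klk13, Spink5 and St14. edgeR called 18.0% of all tested genes lower and 17.0% higher in this comparison. At an unadjusted p under 0.05 the count of members higher was 1, Klk5, and with DESeq2 it was 0. The median log2 fold change of the 9 members was -0.56, and that of all tested genes was 0.03. For Klk6 and St14 every PMA_1002 library lay below every PMA_ethanol library. The groups overlapped for the other 5 genes that fell.

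Klk6 averaged 108.6 ± 31.4 CPM in PMA_1002 and 320.6 ± 107.2 CPM in PMA_ethanol (SD, n = 6 and 4). That is 2.95-fold lower in PMA_1002, a log2 fold change of -1.56 (SE 0.234, adjusted p = 0.000144 by edgeR). St14 had 92.2 CPM at the lowest, 97.7 at the median and 111.5 at the highest in PMA_1002, against 164.4 to 199.1 CPM in PMA_ethanol. Its 6 PMA_1002 libraries formed a narrow band below the PMA_ethanol libraries. The log2 fold change of St14 was -0.89 (SE 0.117, adjusted p = 1.85e-05 by edgeR). These calls of Klk6 and St14 held in all 23 alternatives.

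Klk13 averaged 12.7 ± 5.70 CPM in PMA_1002 and 35.0 ± 15.2 CPM in PMA_ethanol, a log2 fold change of -1.48 (SE 0.409, adjusted p = 0.0125 by edgeR). PMA_1002 replicates 1 and 4, with 19.4 and 20.4 CPM, lay above PMA_ethanol replicate 4 with 13.8 CPM. Klk7 had 414.1 CPM at the lowest, 522.7 at the median and 708.7 at the highest in PMA_1002, against 559.6 to 1158 CPM in PMA_ethanol. Its log2 fold change was -0.57 (SE 0.183, adjusted p = 0.0239 by edgeR). Klk7 in PMA_1002 replicates 1 and 4 was again within the PMA_ethanol range. Klk10 averaged 121.1 ± 14.7 CPM in PMA_1002 and 177.7 ± 40.4 CPM in PMA_ethanol, a log2 fold change of -0.56 (SE 0.166, adjusted p = 0.0159 by edgeR). Klk11 averaged 78.6 ± 12.2 CPM in PMA_1002 and 102.9 ± 23.9 CPM in PMA_ethanol, a log2 fold change of -0.39 (SE 0.137, adjusted p = 0.0365 by edgeR). Spink5 had 549.1 CPM at the lowest, 605.5 at the median and 742.2 at the highest in PMA_1002, against 594.5 to 1060 CPM in PMA_ethanol, a log2 fold change of -0.40 (SE 0.150, adjusted p = 0.0463 by edgeR). Spink5 in PMA_1002 replicates 2, 3 and 5 lay above its level in PMA_ethanol replicate 2.

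PMA_ethanol replicate 1 had the highest level of Klk6, Klk7, Klk10, Klk11, Klk13 and Spink5 in its group. Without it, 3 members were called lower and 1 higher. Klk7 then stood at -0.36 (adjusted p = 0.128 by edgeR), Klk10 at -0.44 (adjusted p = 0.0729 by edgeR), Klk11 at -0.22 (adjusted p = 0.216 by edgeR) and Spink5 at -0.26 (adjusted p = 0.21 by edgeR), while Klk5 rose by 0.58 (adjusted p = 0.0349 by edgeR). Without PMA_ethanol replicate 3, 4 members were called lower, and Klk7 (adjusted p = 0.0591 by edgeR), Klk11 (adjusted p = 0.059 by edgeR) and Spink5 (adjusted p = 0.169 by edgeR) were lost. Klk10 was also lost without PMA_ethanol replicate 2 (adjusted p = 0.052 by edgeR). Without the filter on low counts the calls of Klk7 (adjusted p = 0.0751 by edgeR), Klk10 (adjusted p = 0.0572 by edgeR), Klk11 (adjusted p = 0.0702 by edgeR) and Spink5 (adjusted p = 0.0844 by edgeR) were lost. Klk11 was lost as well without PMA_1002 replicate 2, 3, 5 or 6, and Spink5 without Control replicate 2, 4 or 5 or PMA_1002 replicate 1, 2, 3, 4 or 6. In all, the Klk11 call was lost in 11 of 23 alternatives and the Spink5 call in 14. With all libraries Klk5 averaged 104.3 ± 27.3 CPM in PMA_1002 and 78.5 ± 20.5 CPM in PMA_ethanol, a log2 fold change of 0.41 (SE 0.190, adjusted p = 0.109 by edgeR). Klk8 averaged 55.3 ± 14.9 CPM in PMA_1002 and 57.2 ± 15.2 CPM in PMA_ethanol, a log2 fold change of -0.05 (SE 0.198, adjusted p = 0.876 by edgeR).

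PMA_1002 against Control shows where the genes stood with the peptide relative to Control ears. Of the 9 tested members, 5 rose and 0 fell, namely Klk6, Klk7, Klk10, Klk11 and St14. edgeR called 28.4% of all tested genes higher and 26.7% lower. The count of members lower was also 0 at an unadjusted p under 0.05 and with DESeq2. The median log2 fold change was 0.68 over the members and -0.03 over all tested genes. For Klk6, Klk7, Klk10 and Klk11 the groups did not overlap, and for St14 they did.

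Klk6 averaged 108.6 ± 31.4 CPM in PMA_1002 and 25.6 ± 4.27 CPM in Control (SD, n = 6 and 5), which was 4.23-fold higher (log2 fold change 2.08, SE 0.246, adjusted p = 7.38e-06 by edgeR). Klk7 averaged 551.9 ± 108.0 CPM in PMA_1002 and 318.2 ± 50.2 CPM in Control, a log2 fold change of 0.79 (SE 0.177, adjusted p = 0.00133 by edgeR). Klk10 rose by 0.77 (SE 0.161, adjusted p = 0.000797 by edgeR) and Klk11 by 0.83 (SE 0.134, adjusted p = 6.89e-05 by edgeR). With the peptide these 4 clustered kallikreins were thus above Control. St14 had 92.2 to 111.5 CPM in PMA_1002 and 60.4 to 103.8 CPM in Control, a log2 fold change of 0.38 (SE 0.113, adjusted p = 0.00854 by edgeR). The St14 call was lost with upper-quartile scaling (log2 fold change 0.23, adjusted p = 0.0886 by edgeR). Klk13 stood at 0.68 (SE 0.419, adjusted p = 0.188 by edgeR), Spink5 at 0.33 (SE 0.143, adjusted p = 0.0621 by edgeR), Klk8 at 0.31 (SE 0.187, adjusted p = 0.176 by edgeR) and Klk5 at 0.28 (SE 0.176, adjusted p = 0.194 by edgeR), none of them called. Spink5 was called in 7 of 23 alternatives, among them DESeq2 (adjusted p = 0.0488) and those without Control replicate 1, PMA_ethanol replicate 1, 2 or 4, or PMA_1002 replicate 6.

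Along the cluster, the genes that rose in PMA_ethanol against Control did not form an unbroken run. Klk8 lies between Klk9 and Klk7, both called higher in PMA_ethanol than in Control, and was not called itself. Klk5, the last of the members along the cluster, lies next to Klk6, which had the highest fold change of the members.

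**Figure D3:**
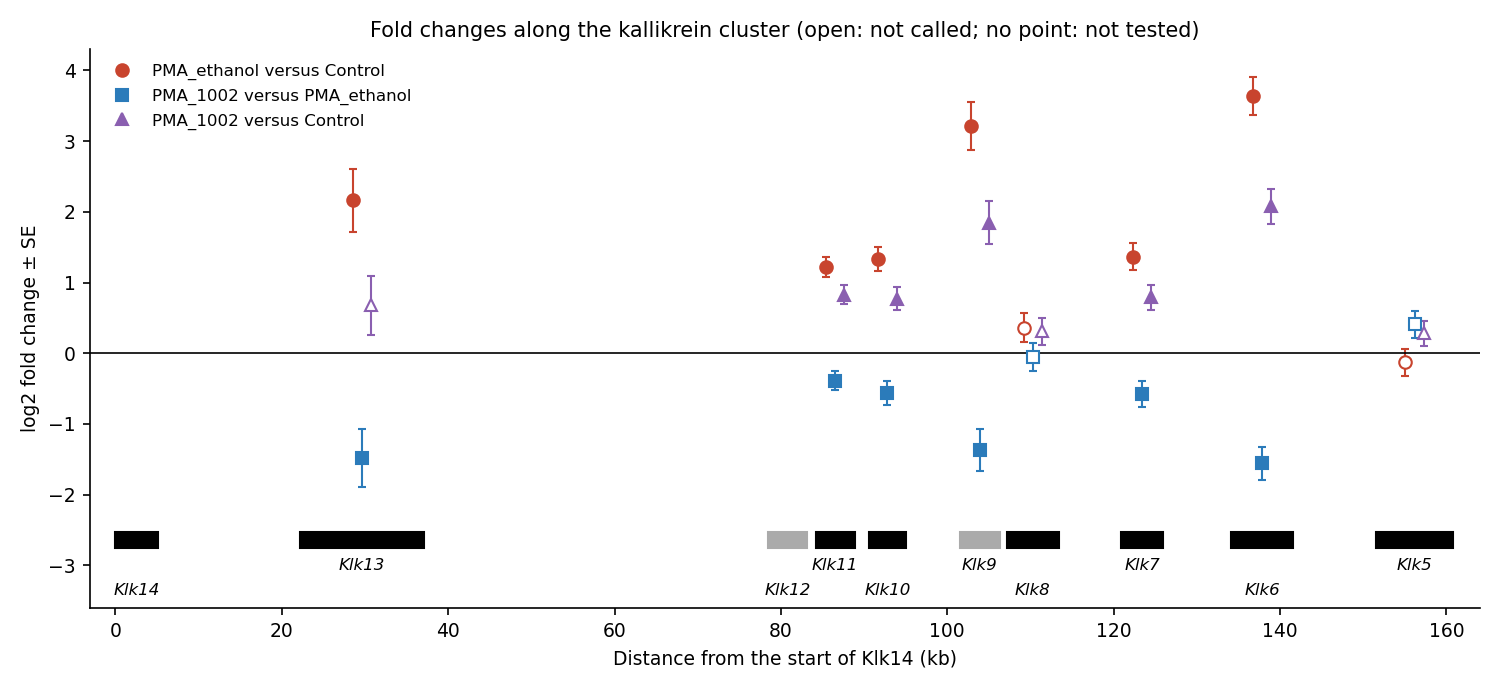
Log2 fold change with its SE (y axis) of the tested kallikreins against distance from the start of Klk14 in kb (x axis), with gene bodies as boxes (black, members; grey, Klk12 and Klk9). Circles are PMA_ethanol versus Control, squares PMA_1002 versus PMA_ethanol and triangles PMA_1002 versus Control, and open symbols were not called. Klk6 and Klk9, at 3.64 and 3.21 for the circles, stand above their neighbours Klk8 at 0.36 and Klk5 at -0.13.

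Set per length, in CPM per kb of exon, the levels of the genes could be ordered within a group. In PMA_1002 ears Klk7 was first with 291.2 ± 57.0 CPM per kb, followed by Spink5 with 130.4 ± 15.9. Klk10, Klk5 and Klk6 followed with 88.2 ± 10.7, 78.1 ± 20.4 and 71.8 ± 20.8 CPM per kb and did not differ beyond their SD. In PMA_ethanol ears Klk7 had 433.1 ± 135 CPM per kb, Klk6 had 211.9 ± 70.9, Spink5 172.8 ± 49.7 and Klk10 129.4 ± 29.5, and each of the last 3 lay within the spread of its neighbour. In Control ears Klk7 had 167.9 ± 26.5 CPM per kb, Spink5 104.0 ± 13.0, Klk5 64.5 ± 9.11 and Klk10 51.4 ± 13.0, while Klk6 was seventh with 16.9 ± 2.82. By mean level, Klk6 held the second place in PMA_ethanol ears, the fifth in PMA_1002 ears and the seventh in Control ears. Its places in PMA_ethanol and PMA_1002 ears were not set apart from their neighbours beyond the spread. St14, Klk13 and Klk14 were the last 3 in every group.

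The summed level of the 8 kallikreins was 624.7 ± 116 CPM per kb in PMA_1002, 956.4 ± 274 in PMA_ethanol and 363.4 ± 52.6 in Control (SD, n = 6, 4 and 5). Klk7 made up 46.5% of that sum in PMA_1002, 45.2% in PMA_ethanol and 46.1% in Control. The share of Klk6 was 11.3% in PMA_1002, 21.9% in PMA_ethanol and 4.65% in Control, and that of Klk5 was 12.4%, 6.18% and 17.9% in the same groups. The make-up of the sum therefore differed between groups mainly in Klk6 and Klk5, with Klk7 near the same share in all 3. The ratio of the summed kallikreins to Spink5, both per kb, was 4.87 ± 1.23 in PMA_1002, 5.64 ± 1.31 in PMA_ethanol and 3.52 ± 0.589 in Control. These sums and ratios describe RNA and were not tested.

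**Figure D4:**
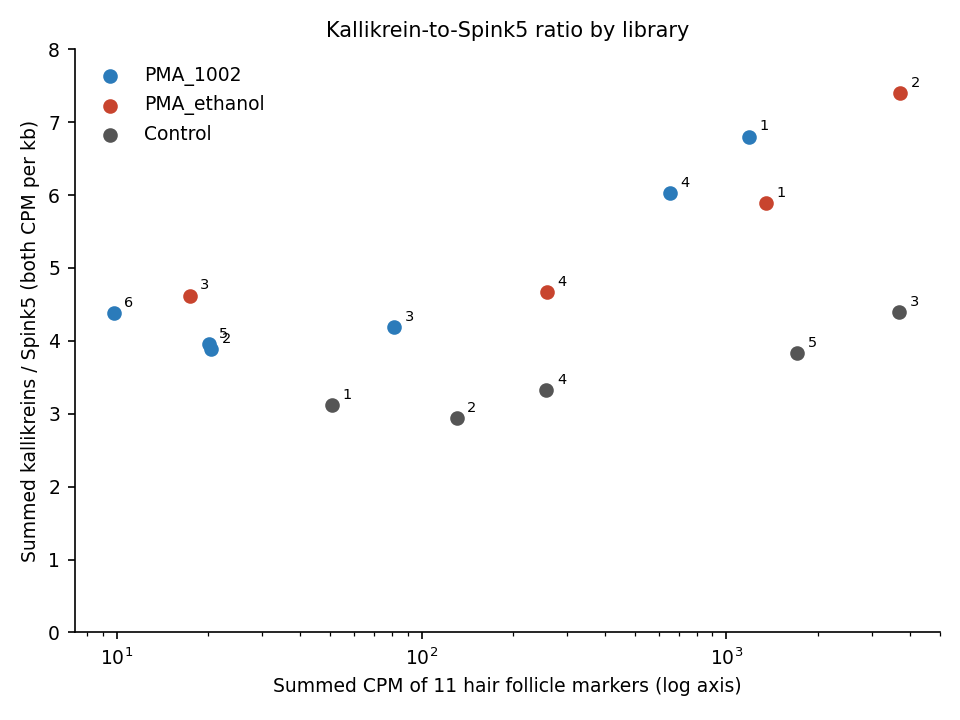
Ratio of summed kallikreins to Spink5, both in CPM per kb (y axis, linear), against the summed CPM of 11 hair follicle markers (x axis, log scale) in each library, labelled by replicate number and coloured by group. Within each group the 2 libraries with the highest hair follicle level also had the 2 highest ratios, for example 6.80 and 6.03 in PMA_1002.

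The ratio varied with the hair follicle level of the library. In PMA_1002 it was 6.80 and 6.03 in replicates 1 and 4, which had 1184 and 650.9 CPM of hair follicle markers, and 3.89 to 4.38 in the other 4. In PMA_ethanol it was 5.89 and 7.40 in replicates 1 and 2, with 1350 and 3721 CPM of these markers, against 4.62 and 4.67 in replicates 3 and 4. In Control it was 4.39 and 3.83 in replicates 3 and 5, with 3690 and 1708 CPM, against 2.94 to 3.32 in the other 3. All 11 markers had reads in each group, and 0 of the 11 were called in any comparison by edgeR or DESeq2 or had an unadjusted p under 0.05. Their median log2 fold change was 0.16 in PMA_ethanol against Control, -2.15 in PMA_1002 against PMA_ethanol and -2.18 in PMA_1002 against Control. With the hair follicle level as a covariate, an alternative chosen after seeing the data, 7 members rose in PMA_ethanol over Control, 6 fell in PMA_1002 against PMA_ethanol and 7 rose in PMA_1002 over Control. The call that ended was Klk11 between PMA_1002 and PMA_ethanol (adjusted p = 0.1 by edgeR), and those that appeared were Klk13 (log2 fold change 1.04, adjusted p = 0.0214 by edgeR) and Klk8 (0.47, adjusted p = 0.0191 by edgeR) between PMA_1002 and Control.

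Markers of the upper living epidermis, the layers known to make kallikreins, were examined beside the members. The summed level of 8 suprabasal keratinocyte markers was 17580 to 20690 CPM in PMA_1002, 8892 to 12220 CPM in PMA_ethanol and 15570 to 21650 CPM in Control. Krt10, a keratin of these layers, made up most of the sum, with 13120 ± 764.9 CPM in PMA_1002, 6195 ± 690.3 CPM in PMA_ethanol and 13290 ± 1897 CPM in Control (mean ± SD). In PMA_ethanol against Control 4 of the 8 fell (Krt1, Krt10, Lor and Calml3) and 1 rose (Ivl, log2 fold change 0.47, adjusted p = 0.0362 by edgeR). In PMA_1002 against PMA_ethanol 6 rose and 0 fell, and in PMA_1002 against Control 2 rose, Krt1 and Ivl, and 0 fell. Basal keratinocyte markers summed to 11200 to 12640 CPM in PMA_1002, 6964 to 8861 CPM in PMA_ethanol and 10150 to 12910 CPM in Control. In PMA_ethanol against Control 3 of these 7 markers fell (Krt5, Krt14 and Krt15) and 1 rose. The 1 that rose was Itga6 (log2 fold change 0.69, adjusted p = 1.01e-06 by edgeR). In PMA_1002 against PMA_ethanol 6 of the 7 rose and 0 fell, and in PMA_1002 against Control 3 rose and 1 fell. Neutrophil markers moved the same way as the members called in PMA_ethanol against Control and in PMA_1002 against PMA_ethanol, but not as Klk5 and Klk8, which were not called. All 6 tested of 10 neutrophil markers rose in PMA_ethanol against Control, and all 6 fell in PMA_1002 against PMA_ethanol. The sums of the 10 were 232.5 to 488.0 CPM in PMA_1002, 1053 to 2423 CPM in PMA_ethanol and 15.2 to 26.5 CPM in Control. In PMA_ethanol S100a9 (mean 746.1 CPM), Csf3r (447.2 CPM) and S100a8 (393.6 CPM) made up the largest parts. Which cells made this RNA was not tested. Of 8 macrophage and monocyte markers, 4 rose and 1 fell in PMA_ethanol against Control, and 1 rose and 4 fell in PMA_1002 against PMA_ethanol. Their sums were 566.2 to 694.3 CPM in PMA_1002, 814.0 to 1051 CPM in PMA_ethanol and 370.0 to 473.4 CPM in Control. The part of any of these cell types in the kallikrein results was not tested.

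The genes with the most similar course over the 15 libraries were sought by the root mean square difference of log2 CPM after centring each gene. Klk7 and Klk11 were each other's closest gene of all those tested, at 0.125. Next to Klk7 came Spire1, an actin nucleator gene, at 0.132, and next to Klk11 came Cstb, which encodes the cathepsin inhibitor cystatin B, at 0.133. Klk6 was closest to Tgfa, a ligand of the epidermal growth factor receptor, at 0.239, and to Klk9 at 0.242. Spink5 was closest to Map3k20 at 0.127 and Rtn4 at 0.135. St14 was closest to Spint1, the gene of an inhibitor of matriptase, at 0.118, and then to Laptm5, a lysosomal membrane protein gene of leukocytes, at 0.133. Klk8 was closest to Prss8, the gene of the membrane protease prostasin, at 0.158, and to AI661453 at 0.16. Klk5 was closest to Serpinb8, a serine protease inhibitor gene, at 0.143, and to Bicdl2 at 0.157. Klk10 had Gm13124 at 0.192 and Twist2 at 0.216, and Klk13 had no gene nearer than Dio2 at 0.482 and Scnn1b at 0.495. Within the list, Klk5 was nearest to Klk8 at 0.249 and farthest from Klk6 at 1.46.

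Other genes of the kallikrein pathway were examined as lists. Each count of 0 given for these lists and for the keratinocyte markers was also 0 at an unadjusted p under 0.05 and with DESeq2. Of 18 other kallikrein genes, Klk9 alone had enough reads to test. Klk9 averaged 92.5 ± 32.8 CPM in PMA_1002, 239.4 ± 94.5 CPM in PMA_ethanol and 25.6 ± 5.96 CPM in Control. It rose in PMA_ethanol over Control by 3.21 (SE 0.336, adjusted p = 1.4e-06 by edgeR), fell in PMA_1002 against PMA_ethanol (log2 fold change -1.36, SE 0.296, adjusted p = 0.00292 by edgeR) and rose in PMA_1002 over Control by 1.85 (SE 0.309, adjusted p = 0.000209 by edgeR). The other 17 include the near-identical Klk1b genes, whose reads may have been set aside as having several positions, so their low values are uncertain.

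Among 5 tested of 8 other serine protease inhibitors, 3 rose and 1 fell in PMA_ethanol against Control, 1 rose and 2 fell in PMA_1002 against PMA_ethanol, and 1 rose and 0 fell in PMA_1002 against Control. Slpi, the secretory leukocyte protease inhibitor, averaged 116.1 ± 31.1 CPM in PMA_1002, 616.2 ± 156 CPM in PMA_ethanol and 4.11 ± 1.43 CPM in Control. Its log2 fold change was 7.26 in PMA_ethanol over Control (SE 0.305, adjusted p = 3.17e-11 by edgeR) and -2.40 in PMA_1002 against PMA_ethanol (SE 0.218, adjusted p = 1.34e-06 by edgeR). Spint1 followed St14, with 82.3 ± 9.34 CPM in PMA_1002, 155.3 ± 21.3 CPM in PMA_ethanol and 69.1 ± 17.4 CPM in Control. Serpina12, whose human product vaspin inhibits KLK7, went the other way. It averaged 123.6 ± 17.7 CPM in PMA_1002, 64.0 ± 10.6 CPM in PMA_ethanol and 131.6 ± 21.6 CPM in Control. Its log2 fold change was -1.06 in PMA_ethanol over Control (SE 0.140, adjusted p = 3.85e-06 by edgeR) and 0.97 in PMA_1002 against PMA_ethanol (SE 0.136, adjusted p = 3.54e-05 by edgeR).

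Of 8 tested among 12 other activating serine proteases, 2 rose and 2 fell in PMA_ethanol against Control, 3 rose and 1 fell in PMA_1002 against PMA_ethanol, and 3 rose and 0 fell in PMA_1002 against Control. Prss27, a membrane-anchored serine protease gene also known as marapsin, averaged 33.8 ± 8.42 CPM in PMA_1002, 143.7 ± 43.9 CPM in PMA_ethanol and 4.58 ± 0.659 CPM in Control. It rose in PMA_ethanol over Control by 4.95 (SE 0.251, adjusted p = 1.31e-10 by edgeR) and fell in PMA_1002 against PMA_ethanol (log2 fold change -2.07, SE 0.197, adjusted p = 1.47e-06 by edgeR). Tmprss11g, of the type II transmembrane serine proteases, rose in PMA_ethanol over Control by 1.90 (SE 0.317, adjusted p = 7.64e-05 by edgeR). Its log2 fold change between PMA_1002 and PMA_ethanol was 0.09 (SE 0.283, adjusted p = 0.842 by edgeR). Among the 3 that rose in that comparison were Tmprss4 (log2 fold change 0.40, SE 0.0764, adjusted p = 0.000632 by edgeR) and Tmprss11f (log2 fold change 1.1, SE 0.230, adjusted p = 0.00175 by edgeR). Prss8 was not called in any comparison, with 38.3 ± 10.7 CPM in PMA_1002, 40.5 ± 14.8 CPM in PMA_ethanol and 30.5 ± 4.49 CPM in Control.

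**Figure D5:**
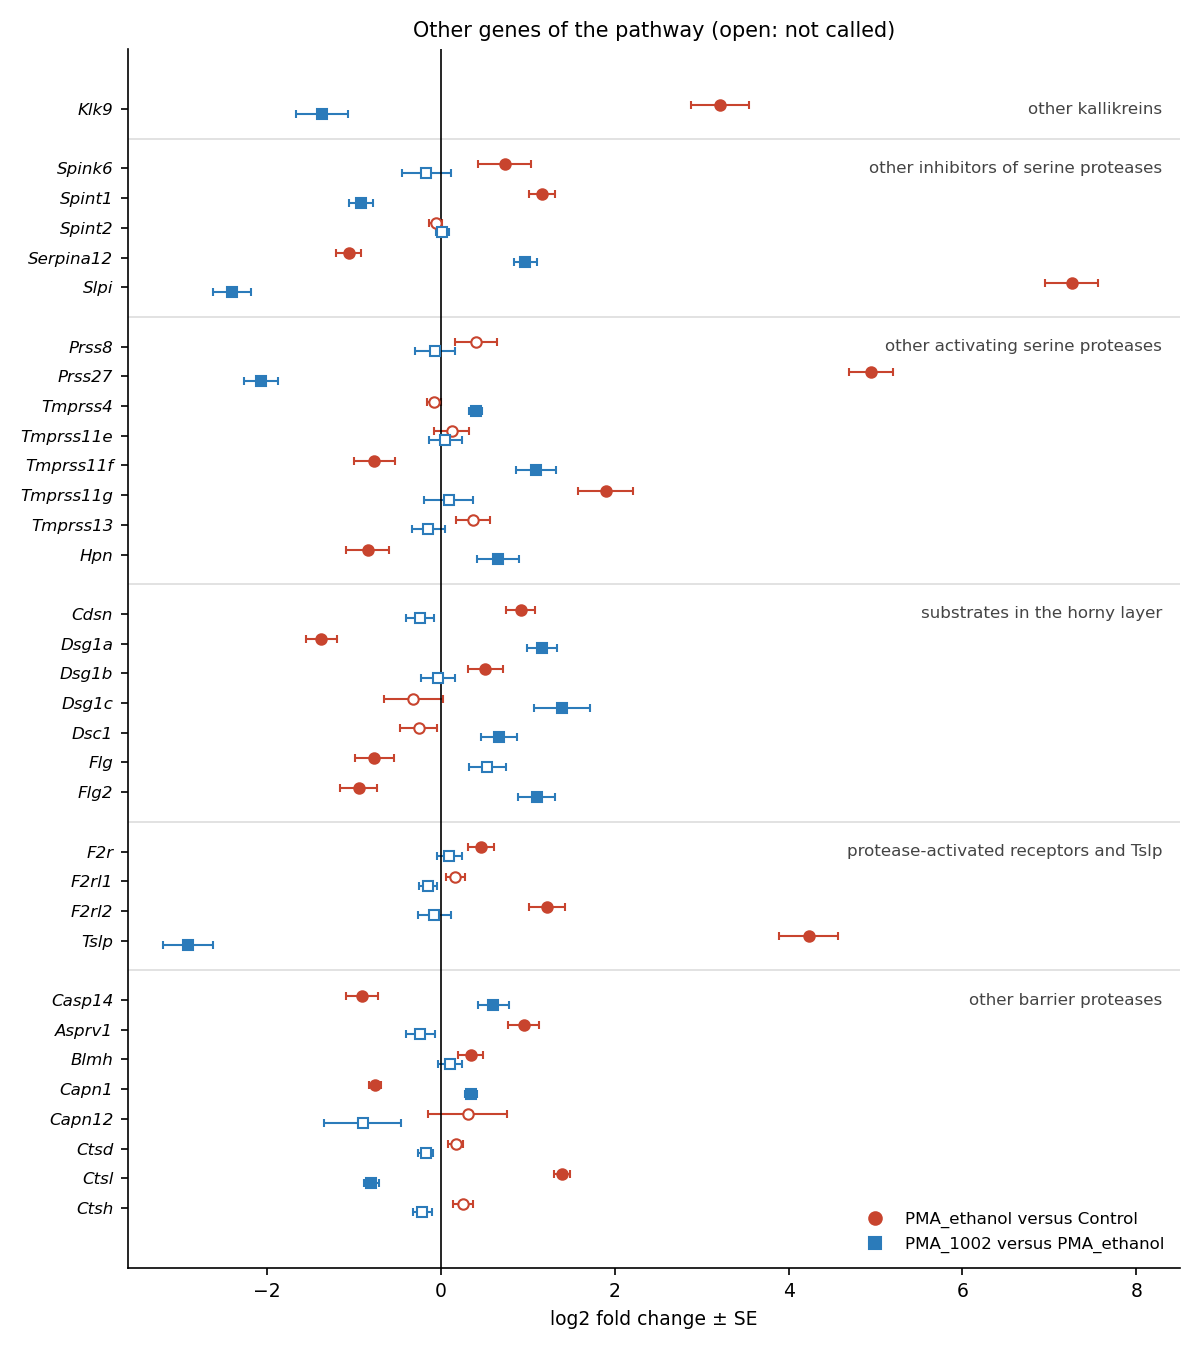
Log2 fold change with its SE (x axis) of each tested gene of 6 pathway lists (y axis) in PMA_ethanol versus Control (circles) and PMA_1002 versus PMA_ethanol (squares), with open symbols for genes not called. Slpi lies farthest to the right at 7.26, and Dsg1a, Flg2 and Serpina12 lie to the left of 0 for the circles and to the right for the squares.

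The substrates of kallikreins in the horny layer did not share 1 direction in PMA_ethanol against Control. Of 7 tested among 8, 2 rose and 3 fell in that comparison, where 32.5% of all tested genes were called higher and 35.9% lower. In PMA_1002 against PMA_ethanol 4 rose and 0 fell, with 17.0% of all tested genes called higher and 18.0% lower. In PMA_1002 against Control 3 rose and 0 fell, with 28.4% of all tested genes called higher and 26.7% lower. Cdsn, which encodes corneodesmosin, averaged 606.8 ± 131 CPM in PMA_1002, 716.4 ± 192 CPM in PMA_ethanol and 378.5 ± 36.8 CPM in Control. It rose by 0.92 in PMA_ethanol over Control (SE 0.168, adjusted p = 0.000127 by edgeR) and by 0.68 in PMA_1002 over Control (SE 0.154, adjusted p = 0.00135 by edgeR). Dsg1a, a desmoglein gene, averaged 993.8 ± 98.0 CPM in PMA_1002, 445.0 ± 103 CPM in PMA_ethanol and 1152 ± 266 CPM in Control. Its log2 fold change was -1.38 in PMA_ethanol over Control (SE 0.178, adjusted p = 3.45e-06 by edgeR) and 1.16 in PMA_1002 against PMA_ethanol (SE 0.172, adjusted p = 6.82e-05 by edgeR). Mouse Dsg1a, Dsg1b and Dsg1c are close copies, so the split of reads among them is uncertain. Flg2, a filaggrin-related gene, averaged 739.5 ± 147 CPM in PMA_1002, 345.6 ± 89.2 CPM in PMA_ethanol and 663.8 ± 173 CPM in Control, a fall in PMA_ethanol against Control (log2 fold change -0.95, SE 0.217, adjusted p = 0.00115 by edgeR).

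Of 4 tested among 5 genes for protease-activated receptors and Tslp, 3 rose and 0 fell in PMA_ethanol against Control, 0 rose and 1 fell in PMA_1002 against PMA_ethanol, and 3 rose and 0 fell in PMA_1002 against Control. Tslp averaged 11.7 ± 4.94 CPM in PMA_1002, 91.4 ± 40.0 CPM in PMA_ethanol and 4.83 ± 0.491 CPM in Control. It rose by 4.23 in PMA_ethanol over Control (SE 0.343, adjusted p = 4.95e-08 by edgeR) and fell in PMA_1002 against PMA_ethanol (log2 fold change -2.91, SE 0.292, adjusted p = 3.78e-06 by edgeR). F2rl1, the receptor gene through which kallikreins are known to act on keratinocytes, had 36.8 ± 5.45 CPM in PMA_1002, 40.5 ± 3.01 CPM in PMA_ethanol and 36.2 ± 2.76 CPM in Control and was not called in any comparison.

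All 8 other barrier proteases were tested, of which 3 rose and 2 fell in PMA_ethanol against Control, 2 rose and 1 fell in PMA_1002 against PMA_ethanol, and 3 rose and 1 fell in PMA_1002 against Control. Ctsl, the gene of the lysosomal protease cathepsin L, averaged 496.8 ± 41.4 CPM in PMA_1002, 864.6 ± 123 CPM in PMA_ethanol and 328.8 ± 17.5 CPM in Control. It rose by 1.39 in PMA_ethanol over Control (SE 0.0949, adjusted p = 1.13e-09 by edgeR) and fell in PMA_1002 against PMA_ethanol (log2 fold change -0.80, SE 0.0899, adjusted p = 3.99e-06 by edgeR). Capn1 fell in PMA_ethanol against Control (log2 fold change -0.76, SE 0.0689, adjusted p = 4.05e-08 by edgeR). It rose by 0.35 in PMA_1002 against PMA_ethanol (SE 0.0661, adjusted p = 0.00061 by edgeR). In PMA_1002 against Control Capn1 fell (log2 fold change -0.41, SE 0.0607, adjusted p = 2.64e-05 by edgeR). Asprv1, a protease gene of the upper epidermis that processes filaggrin in mice, rose by 0.95 in PMA_ethanol over Control (SE 0.177, adjusted p = 0.000151 by edgeR). Casp14, a caspase gene of the upper epidermis, averaged 70.5 ± 12.5 CPM in PMA_1002, 46.4 ± 9.94 CPM in PMA_ethanol and 87.1 ± 19.3 CPM in Control. It fell in PMA_ethanol against Control (log2 fold change -0.91, SE 0.183, adjusted p = 0.000364 by edgeR) and rose by 0.61 in PMA_1002 against PMA_ethanol (SE 0.177, adjusted p = 0.0145 by edgeR).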

How the data were processed

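PolyA RNA of mouse ear was sequenced in 15 libraries, grouped by sample title. Per the labels' protocols, libraries were made with a kit that preserves strand. Reads went through STAR 2.5 and HTSeq on GRCm38, with quality reports by MultiQC 0.8 and FastQC 0.11.5, per the submitters' processing notes. The sources used here give neither the annotation release nor the strand option. The authors deposited whole-number read counts per gene, without normalization, 1 table per library with 48795 genes. Rows for reads not assigned to a gene (28.5% to 32.9% of reads) stayed out of library sizes and tests. That share includes the reads with several positions (16.0% to 20.1% of reads). GENCODE M21 gave 48435 of the genes a symbol.

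The members, gene lists, naming rule and tests were chosen with earlier results of these data known. Counts were fitted in R 4.3.3 with edgeR 4.0.16 (TMM, filterByExpr by group, 14991 genes tested, robust quasi-likelihood, common biological coefficient of variation 0.185), with group as the only term and calls at an adjusted p under 0.05. SE were derived from the F statistic, and log2 CPM used a prior count of 2. The fit was tested on simulated data in which few genes differed between groups, unlike here, so the choice of scaling was not tested by it. All members are named; of each list the counts and up to 3 called genes of smallest adjusted p per comparison may be named, and the 2 most alike genes of each member with at least 5 CPM in a group. Libraries of 1 group differed by more than counting noise (chi-square per degree of freedom 2.93 to 27.0 over 31 pairs), so each counted as 1 sample; this does not show that they are different animals. Alternatives were RLE and upper-quartile scaling, DESeq2 1.42.0, no filter, the 2 groups alone, a non-robust fit, a replicate block, each library left out and, chosen after seeing the data, hair follicle level as a covariate. Promoter windows were RefSeq's.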

Additional observations from a re-analysis of the deposited data

Results flagged for a closer look

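Among 30 groups of libraries (10 genes in 3 groups), 2 held a library far from the others, where chance gives about 1 in 20. Klk8 was highest in PMA_1002 replicate 1 with 84.35 CPM, while the next library of that group had 55.69 CPM. Klk11 was lowest in Control replicate 2 with 35.05 CPM, while the next Control library had 44.63 CPM.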

How the results depend on the processing

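Under 23 alternatives, the 27 fold changes of the 9 tested members gave 621 values, of which 576 kept their side of the threshold. Among the others, 33 called values lost the call and 12 uncalled ones gained it. Of the 621, 7 changed sign, all of them uncalled. The 7 calls between PMA_ethanol and Control held in all 23. The count of members lower in PMA_1002 than in PMA_ethanol, 7 with all libraries, was 3 without the filter on low counts, where 28737 genes were adjusted over, 4 with the replicate block, and 3 to 7 with 1 library left out; the count higher was 0 to 1. Of the libraries left out, PMA_ethanol replicate 1 gave the lowest count. The replicate block ended the calls of Klk11 (adjusted p = 0.0664 by edgeR), Klk13 (adjusted p = 0.0734 by edgeR) and Spink5 (adjusted p = 0.104 by edgeR) in that comparison and no other call of a member. The numbers share only a name: deviations of same-numbered libraries from their group means correlated between -0.53 and 0.58. Upper-quartile scaling moved the median log2 fold change of all genes by -0.24 in PMA_ethanol against Control, 0.08 in PMA_1002 against PMA_ethanol and -0.16 in PMA_1002 against Control. Of all called genes, 33.6% were then higher in PMA_ethanol against Control (47.5% with TMM), 61.8% in PMA_1002 against PMA_ethanol (48.7%) and 34.6% in PMA_1002 against Control (51.5%). It ended the calls of Klk11 (adjusted p = 0.0783 by edgeR) and Spink5 (adjusted p = 0.088 by edgeR) between PMA_1002 and PMA_ethanol, and of St14 between PMA_1002 and Control. The cause of these changes was not tested. Klk14 had at most 16 reads in a library.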
